A study of Mus musculus with 9 samples.

Results

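Fibroblast growth factor (FGF) receptors, the transcription factors that act downstream of them and the inhibitors that the pathway switches on against itself were followed through the grafting of fetal ovaries into male mice. The 9 genes were Fgfr1 and Fgfr2 (receptors), Etv4 and Etv5 (ETS transcription factors), Spry1, Spry2 and Spry4 (Sprouty inhibitors), and Dusp6 and Dusp9 (phosphatases of MAP kinases). They were chosen by pathway with earlier results of these data in view, among them the fall of Dusp9 on days 10 and 20. The values of Dusp9 against day 0 are therefore given as a description with no test. Counts of calls against day 0 are over the other 8 genes, except those under alternative settings at the end, which include Dusp9. Of these, Fgfr2 had already been listed by the study among genes of pre-granulosa cells that fell by day 10. Its calls come from the same arrays and are not independent of that report. Of 45101 probe sets on the array, 22 were annotated to one of the 9 genes alone, and each gene was read from the probe set selected on the highest mean over the 9 arrays, with the others as a check. The whole table held 18194 genes with a probe set of their own.

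XX ovaries of embryonic day E13.0, freed of the mesonephros, came from embryos of wild-type mothers that had been given busulfan, an alkylating drug that depletes germ cells. Ungrafted ovaries were the day 0 samples, and the grafts had grown for 4, 7, 10, 15 or 20 days under the kidney capsule of adult male (XY) nude mice (BALB/c, nu/nu). All samples, day 0 included, therefore share the busulfan treatment, and the hosts lack a thymus. The labels give the strain of the ovaries as ICR, whereas the methods name C57BL/6 and ICR. Each graft array held approximately 10 pooled grafts, a number that is not stated here for the ungrafted ovaries of day 0. Days 0, 10 and 20 were run in duplicate (2 arrays) whereas days 4, 7 and 15 had 1 array. The labels call the duplicates biological replicates, but the sources used here do not say which litters and hosts stood behind each pool, so a p-value covers the spread between these pools and no more.

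FGFs bind receptor tyrosine kinases, which pass the signal through RAS and a chain of kinases to the MAP kinase ERK. ERK activates ETS factors and induces its own inhibitors, so that Sprouty proteins, which block the pathway between receptor and RAS, and DUSP6, which removes the activating phosphates from ERK, are widely read as a record of recent ERK activity. In the fetal gonad, FGF9 acting through FGFR2 is known for its part in testis formation. In these bulk samples, fewer cells of a type and less RNA per cell cannot be told apart.

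All values are log2 intensities, and a difference of 1 is a 2-fold change. Levels were compared between days within a probe set and never between genes, since probe sets differ in how brightly they bind. The fit was limma's moderated test over all arrays, with Benjamini-Hochberg adjustment over all probe sets, and a gene was called when the adjusted p was under 0.05 and the change over 2-fold. Days 4, 7 and 15 had no replicate, so that their spread was taken from days 0, 10 and 20. The comparisons with day 0 all share the same 2 ungrafted samples.

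Medians per array lay between 6.49 and 6.63. The first day 20 array carried kidney RNA, with all 15 kidney tubule markers above their day 0 mean by a median of 5.37. On the second day 20 array the median was -0.13, and 9 of the 15 lay below their day 0 mean. Miox, however, was high on other late arrays too. It measured 5.43 and 5.58 on day 0, 7.96 and 10.19 on day 10, 10.00 on day 15 and 9.86 on the second day 20 array. Markers of gonadal somatic and pre-granulosa cells were at a median level between 9.27 and 11.91 on every array. The median difference of the 12 genes from day 0 ran from -0.55 (day 4) to -2.46 (first day 20 array). The day 0 arrays differed in germ cell markers, all 9 being higher on the second, and on the graft arrays the median difference of these markers from day 0 ran from -2.83 (day 4) to 0.77 (second day 10 array). Median differences from day 0 lay between -2.35 and -3.32 for 7 erythroid markers, between 1.35 and 2.88 for 8 macrophage markers, and between 1.13 and 1.84 for 8 stromal markers over the 7 graft arrays, and between -0.20 and 0.44 for 8 endothelial markers. None of these lists was tested as a source of the values below.

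Over time, the 9 genes followed different courses. Dusp9, Fgfr2 and Etv4 were highest in the ungrafted ovaries, where both day 0 values lay above those of all 7 graft arrays. Apart from Dusp9, this held for 2 of 8 genes, a share close to the 24% of all genes on the array. Dusp6, Spry1, Spry2, Spry4, Etv5 and Fgfr1 had their highest value on the single day 15 array, which was so for 6 of 9 genes, beside 7.76% of all genes. Of these 6, the test called Dusp6 and Spry4 higher than on day 0.

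**Figure D1:**
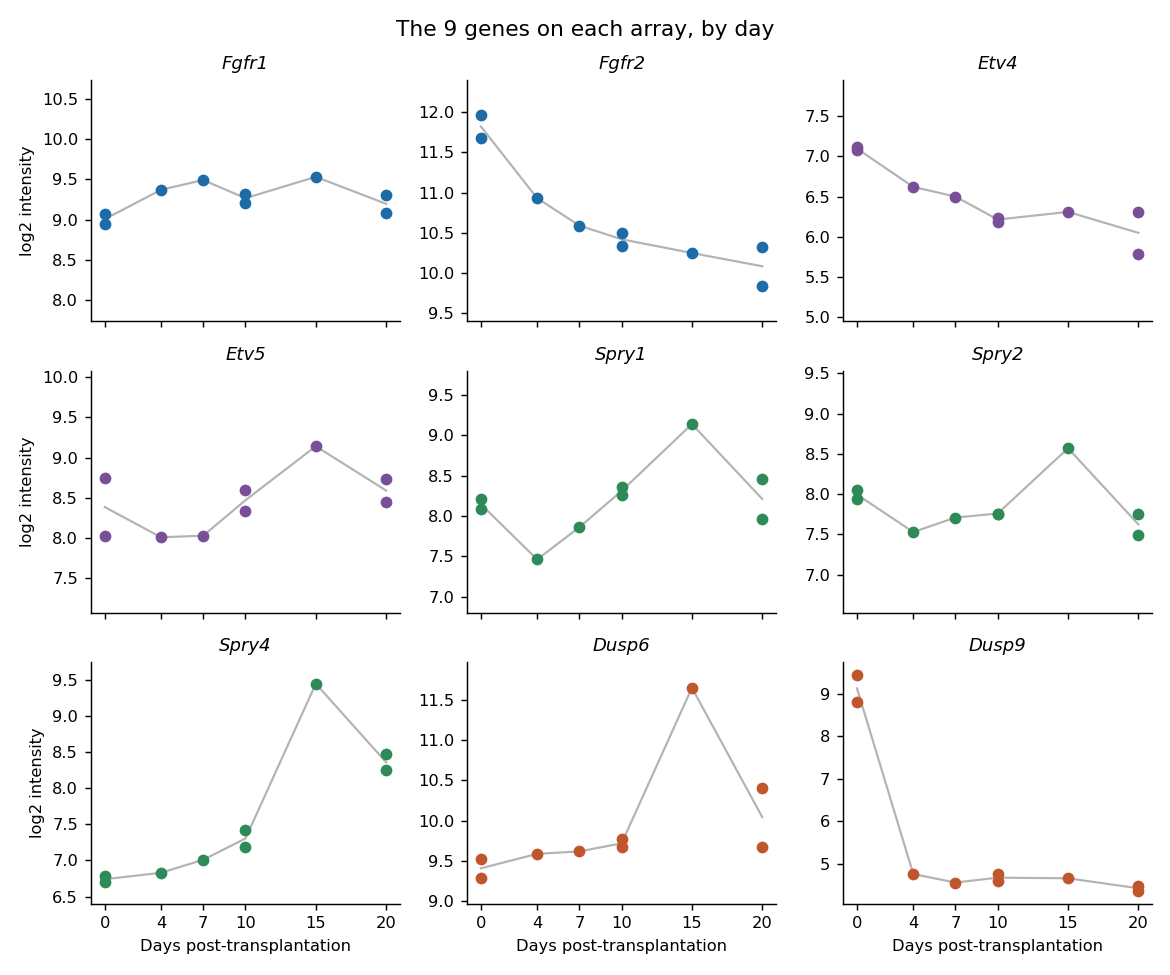
Log2 intensity (vertical axis) of the 9 genes on each of the 9 arrays by day post-transplantation (horizontal axis), 1 point per array, with a line through the day means. Each panel has its own range. Dusp6 reached 11.65 and Spry4 9.45 on day 15, and Dusp9 fell from 8.81 and 9.45 on day 0 to 4.76 on day 4.

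Among the receptors, Fgfr2 fell after grafting and Fgfr1 was not called on any day. Fgfr2, the receptor through which FGF9 signals in the fetal testis, measured 11.96 and 11.68 in the ungrafted ovaries, 10.93 on day 4, 10.59 on day 7, 10.50 and 10.34 on day 10, 10.25 on day 15, and 9.84 and 10.33 on day 20. Each graft array lay below both day 0 arrays, and from day 10 onward the day means differed by less than the gap between the day 20 arrays. Against day 0, Fgfr2 fell by 1.40 on the log2 scale on day 10 (2.63-fold, standard error 0.22, adjusted p = 0.0319) and by 1.74 on day 20 (3.33-fold, standard error 0.22, adjusted p = 0.0122). The day 4, 7 and 15 differences were -0.89, -1.23 and -1.57, with adjusted p of 0.329, 0.124 and 0.0519. Between days 20 and 10 the difference was -0.34 (adjusted p = 0.977).

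A second probe set of Fgfr2 fell in the same way, from 9.76 and 9.86 on day 0 to 8.57 on day 4, 7.88 and 8.31 on day 10, and 7.33 and 7.98 on day 20. Its fall was 3.28-fold on day 10 (adjusted p = 0.0308) and 4.45-fold on day 20 (adjusted p = 0.0112). The third probe set could not be read in the same way, as its day 0 arrays differed from each other, at 7.13 and 5.11. Without the first day 20 array, which held kidney RNA, Fgfr2 was 1.49 below day 0 on day 20 (adjusted p = 0.0263). The call on day 20 was lost without the first or the second day 0 array (adjusted p of 0.0794 and 0.0626), and that on day 10 without either day 0 array (0.141 and 0.124) or either day 10 array (0.179 and 0.253). Of 12 markers of gonadal somatic and pre-granulosa cells, 0 were called lower on day 4, 5 on day 10 and 10 on day 20. Over all genes, 0.236%, 2.01% and 4.51% were called lower on these days. Among the 12, Fst, Bmp2, Wnt4, Rspo1, Irx3, Nr0b1, Emx2 and Lhx9 had been reported by the study as falling in these grafts. The counts were therefore partly known beforehand. Another of them, Foxl2, a factor of granulosa cells, was at 11.44 and 11.58 on day 0 and at 11.71 to 12.98 on the graft arrays. The part of these markers in the fall of Fgfr2 was not tested.

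Fgfr1, the receptor found broadly in mesenchyme, measured 8.94 and 9.07 on day 0, 9.37 on day 4, 9.49 on day 7, 9.32 and 9.21 on day 10, 9.53 on day 15, and 9.08 and 9.31 on day 20. All graft arrays were above both day 0 arrays, the first day 20 array by the least. The differences from day 0 lay between 0.19 (day 20, standard error 0.16) and 0.52 (day 15, standard error 0.20), with adjusted p between 0.27 and 0.695. The second probe set of Fgfr1 was 0.24 below day 0 on day 4 and 0.23 below on day 20, so that the direction depended on the probe set.

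The ETS factors parted from each other. Etv4, a target and effector of FGF signalling in many embryonic tissues, measured 7.08 and 7.11 on day 0, 6.62 on day 4, 6.50 on day 7, 6.19 and 6.24 on day 10, 6.31 on day 15, and 6.31 and 5.79 on day 20. It was lower on every graft array than on day 0. Etv4 fell by 1.05 on day 20 (2.07-fold, standard error 0.21, adjusted p = 0.0382), and on day 10 the difference was -0.88 (standard error 0.21, adjusted p = 0.0868). The day 20 call lay close to both thresholds, and without the first day 20 array the difference was -1.31 (adjusted p = 0.0189). It was lost without either day 0 array (adjusted p of 0.144 and 0.171), without either day 10 array (0.111 each) and without the second day 20 array, where the difference of -0.79 was under 2-fold. The second probe set gave a difference of -0.55 on day 20 (adjusted p = 0.143).

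Etv5, its close relative, which is also known for maintaining germline stem cells in the testis, measured 8.03 and 8.74 on day 0, 8.01 on day 4, 8.03 on day 7, 8.60 and 8.34 on day 10, 9.14 on day 15, and 8.45 and 8.73 on day 20. Only the day 15 array lay above both day 0 arrays, by 0.76 over their mean (standard error 0.34, adjusted p = 0.336). The second day 0 array, with the higher Etv5, was also the one with the higher germ cell markers, which were 1.11 above the day 0 mean there in the median and 1.11 below it on the first. Their part in the gap between the day 0 arrays was not tested. Of the other probe sets of Etv5, one was 0.67 above day 0 on day 15 and one 0.05 below, and neither was called.

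The Sprouty genes were highest on day 15, and of the 3 only Spry4 passed the test. Spry4 measured 6.70 and 6.78 in the ungrafted ovaries, 6.83 on day 4, 7.01 on day 7, 7.42 and 7.19 on day 10, 9.45 on day 15, and 8.25 and 8.47 on day 20. In this probe set, the values of days 0, 4, 7 and 10 followed each other without overlap in small steps, and those of days 20 and 15 stood apart above them. The other probe sets of Spry4 did not show these steps. They were below day 0 on days 4, 7 and 10, with day 10 differences of -0.14, -0.13 and -0.39. Against day 0, Spry4 rose by 2.71 on day 15 (6.52-fold, standard error 0.21, adjusted p = 0.0090) and by 1.61 on day 20 (3.06-fold, standard error 0.17, adjusted p = 0.0071). On day 10 the difference was 0.57 (standard error 0.17, adjusted p = 0.144). Day 20 was 1.05 above day 10 (adjusted p = 0.478), and day 15 was 1.62 above the mean of days 10 and 20 (adjusted p = 0.547).

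The day 20 rise of Spry4 rested on a single probe set. The other 3 probe sets of the gene had differences of -0.07, 0.47 and 0.08 on day 20 (adjusted p of 0.858, 0.18 and 0.832). On day 15 they were 0.78, 1.25 and 0.24 above day 0, with adjusted p of 0.209, 0.0589 and 0.689, so that all 4 were higher there but only the one used was called. Without the first or the second day 0 array the adjusted p of the probe set used was 0.0636 and 0.0566 on day 15 and 0.0574 and 0.0534 on day 20. Without the first day 20 array, Spry4 was still called on day 20 (1.72 above day 0, adjusted p = 0.0162).

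**Figure D2:**
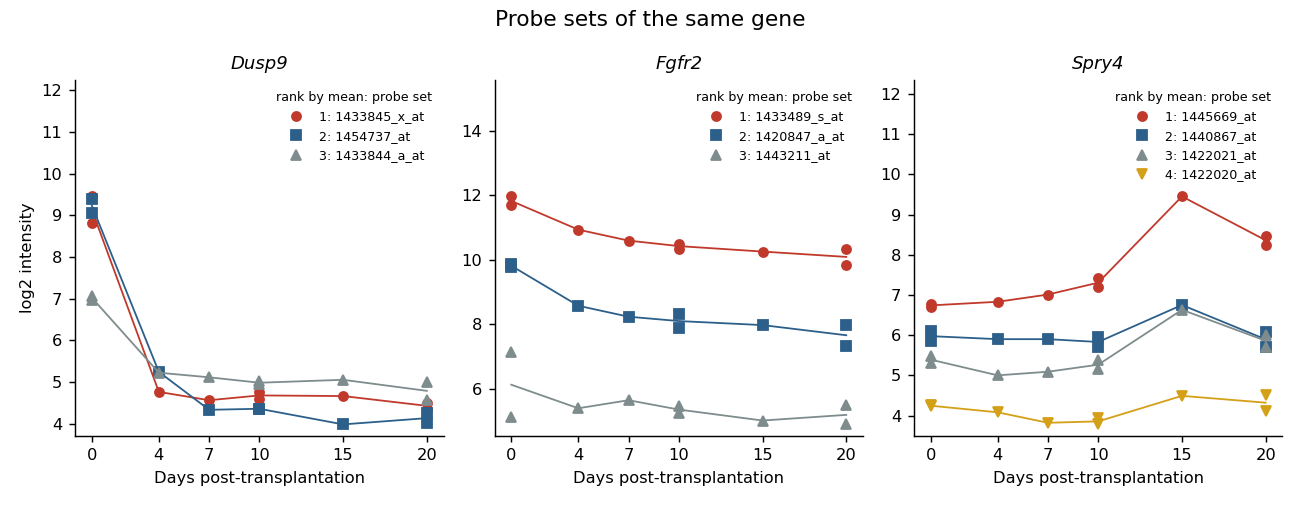
Log2 intensity (vertical axis) by day post-transplantation (horizontal axis) for every probe set of Dusp9, Fgfr2 and Spry4, 1 point per array and a line through the day means, numbered from the highest mean. Among the Spry4 probe sets, the day 20 values of 8.25 and 8.47 stand above day 10 in the first, whereas the second shows a day 20 difference from day 0 of -0.07.

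Spry1 measured 8.21 and 8.08 on day 0, 7.46 on day 4, 7.86 on day 7, 8.36 and 8.26 on day 10, 9.14 on day 15, and 7.96 and 8.46 on day 20. Its lowest value was on day 4 and its highest on day 15, with days 0, 10 and 20 overlapping in between. The day 15 difference from day 0 was 1.0 (standard error 0.26, adjusted p = 0.125), and among the arrays left out in turn it was called without the first or the second day 20 array (standard error 0.16, adjusted p = 0.0438 each). Spry2 measured 7.94 and 8.05 on day 0, 7.53 on day 4, 7.71 on day 7, 7.76 and 7.76 on day 10, 8.57 on day 15, and 7.49 and 7.76 on day 20. Every graft array but that of day 15 was below both day 0 arrays, and day 15 was 0.57 above their mean (standard error 0.20, adjusted p = 0.232). The second probe set of Spry2 was also 0.57 above day 0 on day 15, with an adjusted p of 0.259.

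The phosphatases took opposite courses. Dusp6, which acts on ERK in the cytoplasm and is induced by it, measured 9.53 and 9.29 on day 0, 9.59 on day 4, 9.62 on day 7, 9.77 and 9.67 on day 10, 11.65 on day 15, and 10.41 and 9.68 on day 20. Up to day 10 the values lay within 0.48 of each other, the day 15 value stood apart from all others, and the second day 20 array was back within the range of day 10. Dusp6 rose by 2.24 on day 15 (4.73-fold, standard error 0.33, adjusted p = 0.0338). On day 20 the difference was 0.63 (standard error 0.27, adjusted p = 0.211). The first day 20 array, with the higher Dusp6, is the one with kidney markers: the difference was 0.26 without it and 1.0 without the second (adjusted p of 0.386 and 0.0283), and the part of the kidney RNA was not tested. The day 15 call of Dusp6 was lost without the first or the second day 0 array (adjusted p of 0.129 and 0.145) and without either day 10 array (0.112 each). Dusp6 had no other probe set.

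Dusp9, a phosphatase of the same subfamily known for its need in the placenta, fell at once. It measured 8.81 and 9.45 on day 0, 4.76 on day 4, 4.56 on day 7, 4.76 and 4.59 on day 10, 4.66 on day 15, and 4.49 and 4.36 on day 20. The graft arrays lay within 0.40 of each other, and all were under 4.82, the 25th percentile of all values on the arrays. With no call of signal over background in these data, the graft values cannot be told from background, and the size of the fall is best read against a floor at that percentile, where the difference from day 0 was -4.31 on every graft day. As measured, the differences ran from -4.37 (day 4) to -4.70 (day 20), or to -4.77 on day 20 without the array that held kidney RNA. The suffix of the probe set used (_x_at) marks probes that can also match other sequences. A second probe set without that suffix gave 9.06 and 9.40 on day 0, 5.24 on day 4 and 3.98 to 4.36 from day 7 on. The third probe set showed a smaller fall, from 7.07 and 6.97 on day 0 to between 4.57 and 5.22 on the graft arrays, with differences from -1.80 (day 4) to -2.24 (day 20). Between days 20 and 10 the first differed by -0.25 (adjusted p = 0.977).

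**Figure D3:**
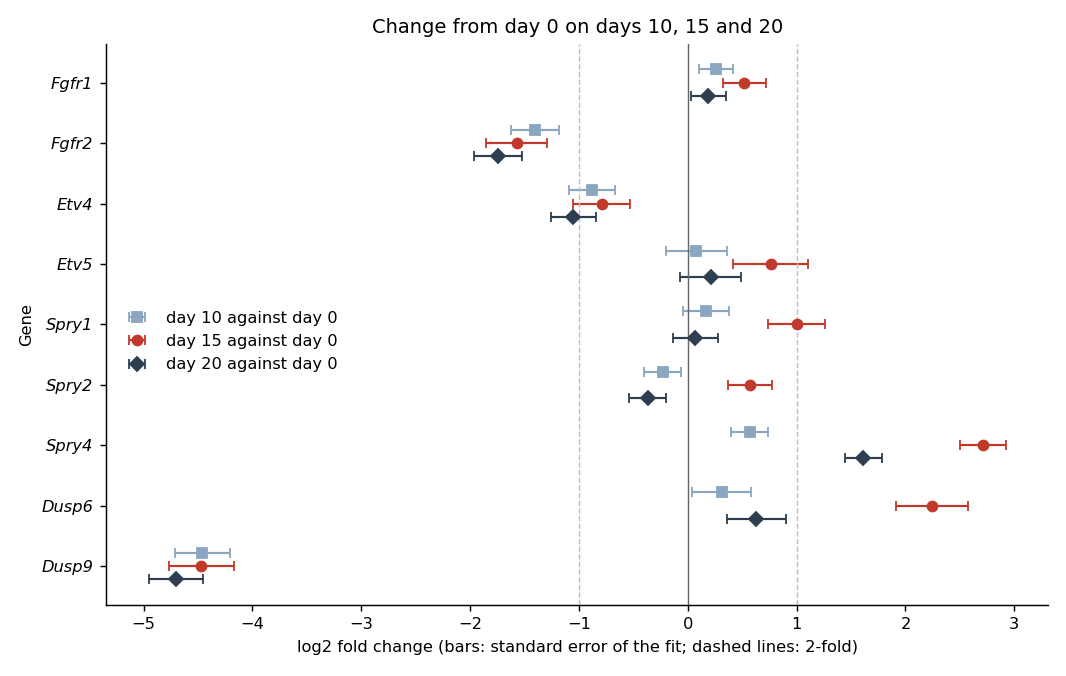
Log2 fold change from day 0 (horizontal axis) of each gene (vertical axis) on days 10, 15 and 20, with the standard error of the fit as bars and 2-fold changes as dashed lines. Dusp6 (2.24) and Spry4 (2.71) stand to the right on day 15, Spry4 stays at 1.61 on day 20, and Fgfr2, Etv4 and Dusp9 lie to the left throughout.

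Apart from Dusp9, 8 genes were counted. On day 4 the test called 0 higher and 0 lower, beside 1.21% of all genes higher and 0.236% lower, and on day 7 again 0 and 0 (all genes, 1.87% and 0.583%). On day 10, 0 were higher and 1 lower, Fgfr2, which the study had listed as falling by then (all genes, 3.87% and 2.01%). On day 15, 2 were higher, Dusp6 and Spry4, and 0 lower (all genes, 2.84% and 1.25%). On day 20, 1 was higher, Spry4, and 2 were lower, Fgfr2 and Etv4 (all genes, 6.31% and 4.51%). The median log2 change of the 8 genes was -0.42 on day 4, -0.28 on day 7, 0.13 on day 10, 0.67 on day 15 and 0.13 on day 20, beside -0.07, -0.11, -0.13, -0.11 and -0.14 over all genes. Among the 8 genes, the largest differences on day 4 were those of Fgfr2 (-0.89) and Spry1 (-0.68), and on day 7 that of Fgfr2 (-1.23).

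Graft days were also set against each other. Between days 20 and 10 limma called none of the 9 genes, and of all genes it called 0.0055% higher and 0% lower. At an unadjusted p under 0.05 only Spry4 was higher (1 of 9 genes; all genes, 4.72%). Against the mean of days 10 and 20, limma called none of the 9 genes on day 15, and 0% of all genes higher and 0% lower. At an unadjusted p under 0.05, 4 of 9 genes were higher and 0 lower on day 15 (all genes, 1.38% higher and 0.627% lower). These were Dusp6 (1.77 above that mean, standard error 0.30, unadjusted p = 0.0013), Spry1 (0.88, unadjusted p = 0.0106), Spry2 (0.88, unadjusted p = 0.0037) and Spry4 (1.62, unadjusted p = 2.03e-04). No other tool was run. The day 15 height of these 4 genes thus rests on 1 array, and it did not pass the adjustment over all probe sets.

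Immediate early genes, a class that ERK can induce, were high on the same array. ERK activity itself was not measured. The study had already listed Egr1, Egr2 and Nr4a1 at their highest on day 15. Of 13 such immediate early genes, 10 were called higher on day 15 against day 0 (all genes, 2.84%), and all 13 lay above their day 0 mean, by a median of 2.48. On the other graft arrays the median lay between 0.37 and 1.04. Egr2, a zinc finger transcription factor, measured 3.91 and 4.37 on day 0, 6.91 to 7.91 on the other graft arrays and 11.80 on day 15, a rise of 7.67 (adjusted p = 0.0046). Egr1 rose by 4.87 on day 15 (adjusted p = 0.0158) and by 2.03 on day 20 (adjusted p = 0.0456), and Myc, a regulator of cell growth, by 2.18 and 1.63 (adjusted p of 0.0461 and 0.0302). The day 0 values of Egr2 were under 4.82, the 25th percentile of all values, so the size of its rise is uncertain. The part of the immediate early genes in the day 15 values of Dusp6 and the Sprouty genes was not tested.

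**Figure D4:**
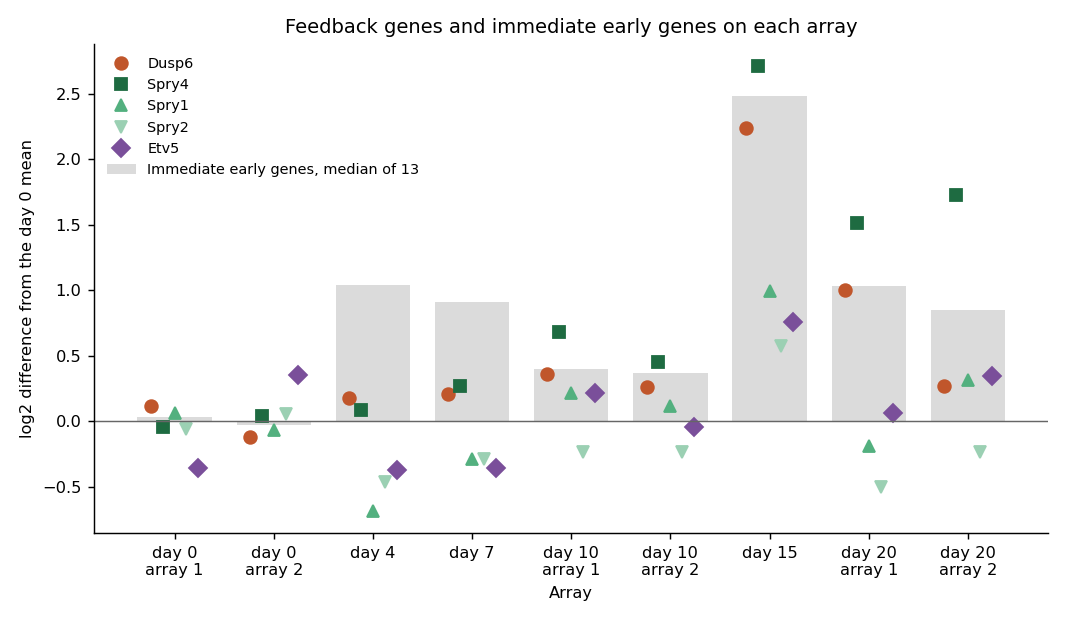
Log2 difference from the day 0 mean (vertical axis) of Dusp6, Spry4, Spry1, Spry2 and Etv5 (points, set side by side) on each of the 9 arrays (horizontal axis), with the median of 13 immediate early genes as bars. The day 15 array has the highest point of all 5 genes and the highest bar, at 2.48.

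Over the 9 arrays, Dusp6, Spry1, Spry2 and Spry4 correlated with each other at Pearson's r between 0.47 (Spry2 with Spry4) and 0.87 (Spry4 with Dusp6), and Etv5 with these 4 at 0.62 to 0.81. Fgfr2 correlated with Dusp9 at 0.91 and with Etv4 at 0.86. These values are a description of 9 arrays. Dusp6, the Sprouty genes and Etv5 were all highest on the single day 15 array, and no correlation was computed without it. On the first day 20 array, Dusp6 was above all arrays but that of day 15 (10.41), while Spry2 was at its lowest (7.49). Among 6613 other genes with a range of at least 1, the courses most like that of Dusp6 were those of Errfi1, a feedback inhibitor of the EGF receptor (r = 0.972), Slc30a1, a zinc exporter (0.950), and Klf10, a transcription factor (0.949). Errfi1 measured 9.88 to 10.29 on days 0 to 10, 13.25 on day 15, and 11.81 and 10.14 on day 20. Like Dusp6, it was higher on the first day 20 array than on the second.

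The courses most like that of Dusp9 were those of Dct, a melanin synthesis enzyme (r = 0.994), 2610318N02Rik (0.993) and Hbb-bh1, an embryonic globin (0.991). Hbb-bh1 measured 10.33 and 10.12 on day 0 and 4.46 to 5.34 on the graft arrays. Erythroid markers fell on the same arrays as Dusp9, and gonadal somatic markers were lower there too (median differences from -0.55 to -2.46). Dusp9 was higher on the second day 0 array, where germ cell markers were higher and erythroid ones lower. On the second day 10 array, germ cell markers were 0.77 above day 0 in the median, with Dusp9 at 4.59. The part of these markers in the fall of Dusp9 was not tested. For Fgfr2 the most similar courses were those of Mthfsd (r = 0.997), Ccdc61 (0.996) and Tnni1, a muscle troponin (0.993). Tnni1 measured 10.72 and 10.23 on day 0, 8.47 on day 4, and 6.03 and 7.06 on day 20.

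Among the FGF ligands, 22 were measured. On days 4, 7, 10 and 15 the test called 1 of them higher, Fgf7, and on day 20 it called Fgf7 and Fgf8, with 0 lower on all these days. Fgf7, a growth factor that mesenchyme sends to epithelium, measured 4.79 and 4.54 on day 0, 6.40 on day 4, 6.45 on day 7, 6.50 and 6.45 on day 10, 6.52 on day 15, and 6.97 and 7.23 on day 20. It had risen by 1.81 on day 10 (adjusted p = 0.0083) and by 2.44 on day 20 (adjusted p = 0.0029), and stromal markers were higher on the same arrays. Their part in the rise of Fgf7 was not tested. Fgf8, known as an oocyte signal to granulosa cells, measured 4.58 and 4.83 on day 0, 5.29 and 6.40 on day 10, 7.39 on day 15, and 7.45 and 7.96 on day 20. It rose by 3.0 on day 20 (8-fold, standard error 0.40, adjusted p = 0.0127), while the day 15 difference of 2.68 had an adjusted p of 0.0563. The day 0 values of Fgf7 and Fgf8 lay under or close to 4.82, the 25th percentile of all values, where signal cannot be told from background. The sizes of both rises are therefore uncertain. Of the day 10 arrays, the second had the higher Fgf8 and the higher germ cell markers (median differences from day 0 of -1.36 and 0.77), and the part of these markers was not tested. Fgf9 stayed between 6.62 and 7.02 on all arrays, and its day 20 difference was -0.01 (adjusted p = 0.978).

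Of 10 other receptors and co-receptors, 1 was called lower on day 20 and none on the other days. This was Flrt2, a membrane protein of a family that binds FGF receptors, which fell by 1.24 on day 20 (adjusted p = 0.0245), from 10.73 and 11.20 to 9.61 and 9.84. Fgfr3 measured 8.24 and 8.57 on day 0, 6.83 on day 4, 6.69 on day 7, 7.44 and 7.03 on day 10, 7.44 on day 15, and 8.11 and 7.23 on day 20, and its day 10 difference of -1.17 had an adjusted p of 0.126. The first day 20 array lay closest to day 0. That array also had Kl, a co-receptor made by kidney tubules, at 10.23, against at most 4.57 elsewhere, a gene singled out after its values were seen.

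Of 11 adaptors of the receptors and 8 genes of the RAS, RAF, MEK and ERK kinases, 0 were called on any day against day 0, where all genes had 1.21% to 6.31% called higher and 0.236% to 4.51% lower. Of 5 other Sprouty-type inhibitors, Spry3 alone was called: it fell by 1.32 on day 20 (adjusted p = 0.0241), from 5.65 and 5.90 to 4.20 and 4.71. These day 20 values were under 4.82, the 25th percentile of all values, so the size of the fall is uncertain. Of 8 other MAP kinase phosphatases, 2 were called higher on day 15 and 2 on day 20. Dusp1, a nuclear phosphatase induced by stress and growth factors, rose by 1.78 on day 15 and 1.12 on day 20 (adjusted p of 0.0205 and 0.0195). Dusp5 rose by 2.05 on day 15 (adjusted p = 0.0275), from 8.16 and 7.98 on day 0 to 10.12, and stood at 8.14 and 7.66 on day 20. Dusp10 rose by 1.09 on day 20 (adjusted p = 0.0195). Of 13 other ETS factors, Ets2 alone was called. It rose by 1.22 on day 10 (adjusted p = 0.019) and by 1.39 on day 15 (adjusted p = 0.0308). Its values were 9.97 and 10.13 on day 0 and 10.78 to 11.44 on the graft arrays.

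Promoter windows from RefSeq (build GRCm38.p6) held 300 bases, from 250 before the start site to 50 after it. Those used here covered 5 of the 9 genes. Windows of a whole chromosome had been left out beforehand, so a gene without a window here may have one in RefSeq. Shares over all windows leave that chromosome out too. The windows of Dusp6, Spry1 and Spry2 are shown, a choice that followed the day 15 values. These genes, with Spry4, were those above days 10 and 20 on day 15 at an unadjusted p under 0.05. Capitals mark GGAAG on either strand (CTTCC when read on the other), letters that contain the core bound by ETS factors, and sequences run 5′ to 3′ along the gene's strand.
Dusp6, chr10:99262981-99263280, plus strand: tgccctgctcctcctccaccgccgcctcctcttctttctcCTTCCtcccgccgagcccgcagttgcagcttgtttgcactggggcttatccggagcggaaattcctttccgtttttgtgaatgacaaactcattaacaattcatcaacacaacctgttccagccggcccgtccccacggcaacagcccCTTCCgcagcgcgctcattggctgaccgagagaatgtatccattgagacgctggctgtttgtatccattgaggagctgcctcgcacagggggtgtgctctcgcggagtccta
Spry1, chr3:37639697-37639996, plus strand: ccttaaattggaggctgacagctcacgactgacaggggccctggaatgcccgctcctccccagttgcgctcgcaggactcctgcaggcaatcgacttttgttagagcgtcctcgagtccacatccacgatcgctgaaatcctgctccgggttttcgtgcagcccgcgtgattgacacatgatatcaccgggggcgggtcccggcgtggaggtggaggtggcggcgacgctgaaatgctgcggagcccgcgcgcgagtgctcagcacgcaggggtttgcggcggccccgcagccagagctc
Spry2, chr14:105896770-105897069, minus strand: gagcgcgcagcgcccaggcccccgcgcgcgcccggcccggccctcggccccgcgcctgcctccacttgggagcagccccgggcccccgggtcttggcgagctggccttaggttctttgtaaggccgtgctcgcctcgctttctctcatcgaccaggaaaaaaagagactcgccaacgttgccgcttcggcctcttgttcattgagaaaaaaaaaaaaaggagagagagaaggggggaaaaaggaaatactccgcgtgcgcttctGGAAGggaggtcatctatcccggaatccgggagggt
Dusp6 held 2 such matches, Spry2 held 1 and Spry1 held 0, while the window of Fgfr2 held 2 and the windows of Etv5 held 4 and 0. GGAAG stood in 71.4% of the 32851 windows of this length that were kept. The longer CCGGAA was found in Spry2 alone of the 5 genes, where it does not overlap the GGAAG, and in 14.9% of all windows. Neither a CArG box, the element bound by serum response factor, nor TGACGTCA, the element bound by CREB, was in a window of the 5 genes (1.63% and 1.79% of all windows). These are letter matches in 1 window per start site, and describe no binding.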

How the data were processed

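Total RNA of ovaries and grafts was amplified, labelled with biotin by 1 of 2 kits (which array had which is not given) and hybridised to Affymetrix whole-genome mouse arrays. The deposited values are log2 intensities computed by the authors with RMA, the robust multiarray algorithm (version not given in the sources used here): background correction, quantile normalization and a summary per probe set. No call of signal over background comes with them, so precision rests on the number of arrays.

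Samples were grouped by day. The platform annotation gave 1 gene symbol for 34958 probe sets, several for 932 and none for 9211. The fit used limma 3.58.1 (lmFit and eBayes) in R 4.3.3 with 1 mean per day over all 9 arrays and all probe sets, none filtered. Residual degrees of freedom were 3, prior ones 2.69, and the prior variance was 0.0423. The fit was tested on simulated data. Shares over all genes use the probe set with the highest mean per gene. Tables came from Python 3.11.15 with pandas 2.3.3 and numpy 2.4.6, and plots from matplotlib 3.10.9.

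Members, gene lists and tests were chosen with earlier results of these data known. The genes named were all 9 members, Fgf9 and Fgfr3, up to 4 genes per pathway list with the largest change among those called on day 10 or 20 against day 0 or on day 15 against days 10 and 20, and the 3 genes most correlated with Dusp9, Dusp6 and Fgfr2 among those with a mean above the 25th percentile. Dusp5 was named beyond this rule, after its values were seen. Lists were described by counts and medians, with no test of a list. The alternatives were an intensity trend, array weights, quantile normalization, median centring, 2 filters on dim values, the days compared alone, a replicate block, another fold threshold, other probe sets and each duplicated array left out. Some genes of the lists are not reported here.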

Additional observations from a re-analysis of the deposited data

How the results depend on the processing

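The fit rests on 3 residual degrees of freedom, and days 4, 7 and 15 on 1 array each. Of the comparisons of single genes under the alternatives, 921 kept their side of the threshold or, for Dusp9 against day 0, moved by less than the spread between duplicates. A further 33 lost a call and 9 gained one, of which 7 were Fgfr2 on day 15. For Dusp9 against day 0, 21 values moved by more than that spread, and all stayed between -5.25 and -3.39, a range that leaves out the probe set with its lowest mean, taken alone (-1.80 to -2.24). Spry4 turned on day 20 with its probe set of the second highest mean, at -0.07 (adjusted p = 0.858), and with the mean of all its probe sets the difference was 0.52 (adjusted p = 0.123). Counted with Dusp9, which passed both thresholds on every graft day and was chosen with its fall known, the number of the 9 genes called was 1 on days 4 and 7, 2 on day 10, 3 on day 15 and 4 on day 20. With probe sets whose mean was under the median left out, which drops Dusp9 and Etv4, it was 0 on days 4 and 7, 1 on day 10 and 2 on day 20. With a floor at the 25th percentile, it was 0 on day 4, 1 on day 10 and 2 on day 20, and the adjusted p was 0.124 for Dusp6 on day 15, 0.102 and 0.0596 for Fgfr2 on days 10 and 20, and 0.098 for Etv4 on day 20. It was 1 on day 10 with the mean of all probe sets, and 2 on day 20 with that mean or the second probe set. With an array left out, it lay between 0 and 1 on days 4 and 7, between 0 and 2 on day 10, between 1 and 5 on day 15 and between 1 and 4 on day 20. The labels do not say whether the replicate numbers pair the samples. Deviations of same-numbered arrays correlated at -0.16 (days 0 and 10), 0.15 (days 0 and 20) and -0.13 (days 10 and 20). These values cannot settle it, since duplicates also differed in germ cell markers and kidney RNA. With the replicate block, Fgfr2 on day 10 (adjusted p = 0.0657) and Etv4 on day 20 (0.0598) were not called. Etv4 on day 20 also lost its call with an intensity trend (0.0503), array weights (0.0506) and the days compared alone (0.111). The 2 comparisons between graft days called 0 genes in every alternative run.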

Other observations

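Other genes of the pathway stood apart on the first day 20 array, which carried the kidney markers. Fgf1 measured 8.35 there, against 5.54 to 6.20 on the other 8 arrays, and the receptor Fgfr4 measured 7.09, against 5.38 to 6.06. These genes were picked after their values were seen, and no test was run.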
